A study of Mus musculus with 6 samples.

Results

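The miR-17 seed family is a set of miRNAs whose guide strands share bases 2 to 8, the seed through which a miRNA pairs with its target mRNAs. Its 6 members, miR-17, miR-20a, miR-93, miR-106b, miR-106a and miR-20b, were chosen by assay name among the 596 miRNA assays of a TaqMan RT-PCR panel, and each had 1 assay. The panel was run on bone marrow-derived macrophages of 3 Dicer KO mice (LysM-Cre/Dicerflox/flox/Apoe–/–) and 3 Dicer WT mice (LysM-Cre/Dicerwt/wt/Apoe–/–). All were male, aged 6 to 8 weeks, and both groups carried the Cre driver and lacked Apoe. Femoral marrow was cultured for 7 days with L929-conditioned medium, which supplies macrophage colony-stimulating factor. The LysM promoter drives Cre in cells of the myeloid lineage, so the floxed gene is deleted as marrow cells become myeloid, and cells that keep Dicer can be present in a KO culture. The assays read small RNAs only, and the deletion could not be checked at the Dicer gene. The comparison asks how much of this family a macrophage retains when Dicer is deleted, the enzyme that releases miRNA duplexes from their precursor hairpins.

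The 6 miRNAs come from 3 paralogous clusters, each transcribed as 1 long precursor. The miR-17-92 cluster is a target of MYC and promotes proliferation of blood cells, and miR-17, miR-20a and miR-106a are known in human monocytes to repress the transcription factor RUNX1 and to decline during monocyte differentiation. The miR-106b-25 cluster lies in an intron of Mcm7, a gene of the replicative helicase. Known targets of the shared seed include the cell cycle inhibitor p21 and the pro-apoptotic protein BIM, and in macrophages the cholesterol exporter ABCA1.

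The mature sequences are shown because the members differ by only a few bases outside the seed, which bears on what each assay reads. They are RefSeq sequences (GRCm38.p6), matched for 6 of 6 members, with the seed in capitals.
miR-17: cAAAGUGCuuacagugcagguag
miR-20a: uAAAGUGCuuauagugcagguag
miR-93: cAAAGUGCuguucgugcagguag
miR-106b: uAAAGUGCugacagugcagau
miR-106a: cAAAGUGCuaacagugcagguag
miR-20b: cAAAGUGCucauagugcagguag
Counted from 1 at the 5′ end, miR-106a differs from miR-17 at a single base (U10A). miR-20a differs from miR-17 at 2 bases (C1U and C12U), and so does miR-20b (U10C and C12U). miR-93 differs from miR-17 at 4 bases in the middle of the molecule (U10G, A11U, C12U and A13C). miR-106b is 21 bases long, where the others have 23, and differs from miR-17 at 3 of the shared bases (C1U, U10G and G20A). Among the mature mouse miRNAs of the RefSeq table that were looked up, the same bases 2 to 8 were found in 1 more, miR-6383, which had no assay on the panel.

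The members' genes form short arrays. Mir17 (chr14:115043671-115043754, plus strand) and Mir20a (chr14:115044157-115044263, plus strand) belong to the miR-17-92 cluster, whose 6 hairpins span 836 bases. Mir93 (chr5:138165523-138165610, minus strand) and Mir106b (chr5:138165737-138165818, minus strand) lie within Mcm7 with Mir25, over 498 bases. Mir106a (chrX:52742503-52742567, minus strand) and Mir20b (chrX:52742113-52742192, minus strand) belong to the miR-106a-363 cluster, whose 6 hairpins span 875 bases. The hairpins of miR-17 and miR-93 are given because Dicer acts on them, separating the mature strands, in capitals, from the loop between them. The lower-case bases outside both strands belong to the longer transcript.
Mir17 hairpin: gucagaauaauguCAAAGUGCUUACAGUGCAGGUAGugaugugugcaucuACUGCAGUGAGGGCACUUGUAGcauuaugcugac
Mir93 hairpin: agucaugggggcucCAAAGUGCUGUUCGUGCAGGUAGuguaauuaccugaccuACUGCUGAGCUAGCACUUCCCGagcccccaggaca

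The values are threshold cycles (Ct), which fall by 1 for each doubling of template, and wells without amplification are listed at 40. The rows form 2 blocks, A and B, each with 5 small RNA controls that are not products of Dicer (U6, U87, Y1, snoRNA135 and snoRNA202), and all 6 members lie in block A. The mean Ct of these controls in block A was 20.8 ± 1.82 in KO and 20.2 ± 1.02 in WT (SD, n = 3 each; exact permutation p = 0.8, two-sided), with KO replicate 1 the latest at 22.8. Below the ceiling of Ct 35 there were 219 to 290 miRNA assays in KO samples and 307 to 309 in WT samples, and 282 assays measured in all 3 samples of at least 1 group were tested. Of 6 myeloid marker miRNAs (miR-223, miR-142-3p, miR-142-5p, miR-21, miR-146a and miR-155), 6 were below the ceiling in all 6 samples. The liver marker miR-122 and the muscle marker miR-1 were at Ct 40 in all 6. Markers of other cells were below the ceiling, miR-150 (lymphocyte) in 6 samples, miR-126-3p (endothelial) and miR-9 (neural) in 5 each. Fewer samples were below it for miR-451 (erythroid, 3), miR-133a (muscle, 2) and miR-124 (neural, 1). The stromal markers miR-143 and miR-145 were measured in all 6. miR-145 was at Ct 27.96, 25.4 and 23.6 in KO, against 22.6, 22.8 and 27.9 in WT, so that the groups overlapped, and the part of such cells in the results was not tested. In such bulk samples fewer cells with a miRNA and less of it per cell cannot be told apart.

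All 6 members were measured in all 6 samples, and each was less abundant in every KO sample than in every WT sample relative to the controls. Their KO minus WT differences had a median of -1.66 log2 units, or 3.16-fold less in KO, although it was 0.23 and so turned round with the mean of all detected miRNAs as the reference. The pattern of 6 of 6 members with all KO samples below all WT samples is read against 59.9% of all tested assays that shared it. The median difference over the 282 tested assays was -1.91, and it was -0.20 with the mean of detected miRNAs as the reference. The 282 come from both blocks, and some were not measured in every sample. The share of 59.9% was not counted over block A assays measured in all 6 samples, as the members were. Over the 201 assays that, like the members, were measured in all 6 samples, the median was -1.82 relative to the controls. Each log2 relative abundance below is the mean Ct of the 5 controls minus the Ct of the assay. It compares samples, and not 1 assay with another, since assays amplify with different efficiency.

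The members of the Mcm7 locus were the ones that passed the test. miR-93, which like its relatives represses p21, had Ct values of 27.0, 22.7 and 22.4 in KO replicates 1 to 3, against 22.3, 20.8 and 20.0 in WT replicates 1 to 3. Relative to the controls this was -4.12, -2.38 and -3.07 in KO, against -1.25, -0.28 and -0.89 in WT. The lowest WT sample was above the highest KO sample, and KO replicate 1 was the lowest of all. miR-93 fell by 2.38 ± 0.63 log2 units relative to the controls (SE, n = 3 per group; 95% interval -3.89 to -0.88), 5.21-fold lower in KO (limma, adjusted p = 0.034).

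miR-106b, which gives its name to the cluster, had Ct values of 27.3, 24.0 and 23.4 in KO, against 23.0, 22.5 and 21.0 in WT. Its relative abundance was -4.48, -3.69 and -4.03 in KO, against -1.90, -1.91 and -1.88 in WT. The 3 WT samples lay within a few hundredths of each other while the KO samples were spread and far below them. miR-106b fell by 2.17 ± 0.49 (SE; 95% interval -3.32 to -1.02), 4.50-fold lower in KO (limma, adjusted p = 0.0312).

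The members of the miR-17-92 cluster were lower by a smaller amount and did not pass. miR-17, the founding member and a driver of cell cycle entry, had Ct values of 24.0, 19.9 and 19.1 in KO, against 20.1, 18.6 and 17.5 in WT. Its relative abundance was -1.12, 0.39 and 0.23 in KO, against 0.96, 1.93 and 1.56 in WT, so that the groups did not overlap but KO replicates 2 and 3 came within 1 unit of WT replicate 1. The difference was -1.65 ± 0.62 (SE; 95% interval -3.12 to -0.17; limma, adjusted p = 0.0686, or 0.0431 with the replicate block). miR-20a, transcribed with it, had Ct values of 23.9, 20.1 and 19.7 in KO, against 20.2, 19.0 and 17.9 in WT. Its relative abundance was -1.10, 0.17 and -0.39 in KO, against 0.88, 1.57 and 1.22 in WT, with no overlap. The difference was -1.67 ± 0.55 (SE; 95% interval -2.98 to -0.35; limma, adjusted p = 0.0521, or 0.0431 with the replicate block).

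The members of the X-linked cluster did not pass either, and miR-20b had the smallest difference of the 6. miR-106a had Ct values of 24.0, 19.8 and 18.8 in KO, against 20.0, 18.4 and 17.5 in WT. Its relative abundance was -1.13, 0.51 and 0.49 in KO, against 1.08, 2.14 and 1.61 in WT, a difference of -1.66 ± 0.66 (SE; 95% interval -3.21 to -0.10; limma, adjusted p = 0.0766, or 0.0464 with the replicate block). miR-20b had Ct values of 27.0, 22.7 and 22.0 in KO, against 23.2, 21.5 and 20.6 in WT. Its relative abundance was -4.13, -2.40 and -2.65 in KO, against -2.16, -0.93 and -1.45 in WT. The KO samples lay below the WT samples, but KO replicate 2 and WT replicate 1 were close, and the difference of -1.55 ± 0.67 had a 95% interval from -3.14 to 0.05 (SE; limma, adjusted p = 0.0994, or 0.0464 with the replicate block).

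**Figure D1:**
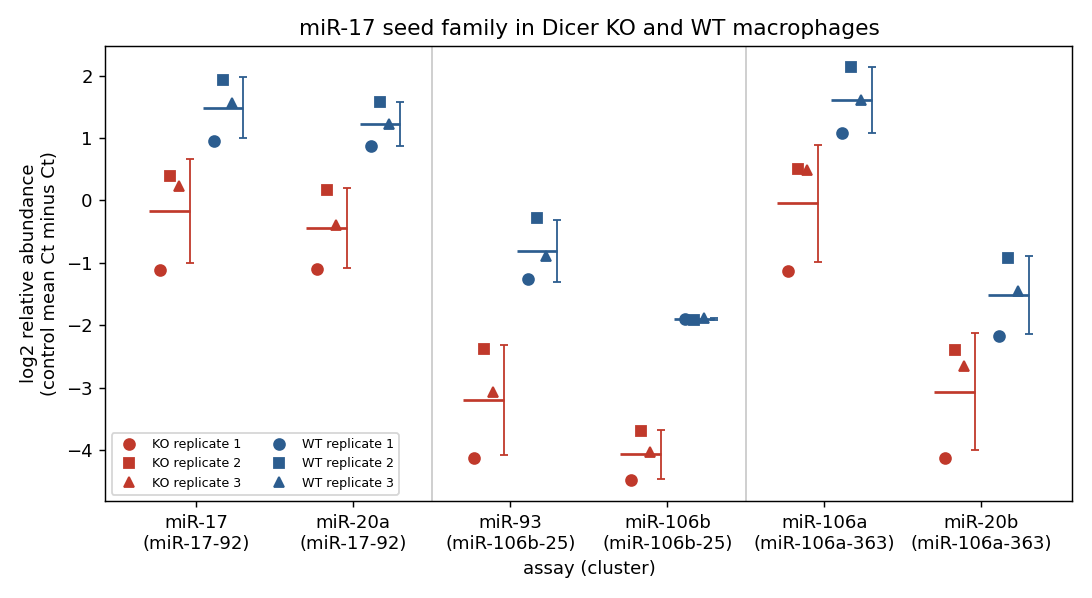
Log2 relative abundance (control mean Ct minus Ct, y axis) of each member (x axis, grouped by cluster) in the 3 KO samples (red, left) and the 3 WT samples (blue, right); bars are means with SD, and heights are not comparable between assays. In each of the 6 assays the KO samples lie below the WT samples relative to the controls, an order that does not hold for 4 of them in the mean difference once the mean of detected miRNAs is the reference, and the WT samples of miR-106b lie at -1.91 to -1.88.

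At an adjusted p under 0.05, 2 of the 6 members were lower in KO and 0 were higher (limma, Benjamini-Hochberg over the 282 assays). Of all tested assays 37.2% were lower. At an unadjusted p under 0.05 by limma, 5 members were lower, beside 150 of the 282 assays. With the replicate number as a block, 6 of 6 members were lower, with adjusted p values from 0.042 to 0.0464, beside 41.8% of all tested assays. The number of calls depended on single samples. Without KO replicate 1 or 3 there were again 2, beside 34.5% and 39.3% of the assays. Without KO replicate 2 or WT replicate 1, 2 or 3 there were 0 by limma, beside 1.06%, 0.692%, 0.685% and 0.687% of the assays. At an unadjusted p under 0.05 there were 5, 5, 2 and 2 members. The share of all assays at that unadjusted threshold was not counted without these samples, so these numbers of members cannot be set against it. By the size of the difference miR-93 ranked 77th and miR-106b 105th from the lowest of the 282, and the other members ranked 162nd to 176th. In the authors' deposited table of folds the members were 2.63-fold (miR-20b) to 4.62-fold (miR-93) lower in KO.

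The KO samples were unequal, and the members moved together within each. Set against the WT mean, the median of the 6 members was -2.61 in KO replicate 1, -1.10 in KO replicate 2 and -1.43 in KO replicate 3, beside -2.29, -1.65 and -1.42 for all tested assays. The lowest member was miR-93 in replicates 1 and 3, at -3.31 and -2.26, and miR-106b in replicate 2, at -1.79. KO replicate 1, with the latest controls, thus had the lowest median of the family as well, and KO replicate 2 was the only one in which the family's median lay above that of all assays. Without KO replicate 1 the median difference between KO and WT was -1.25. The WT samples differed too: the median of the members was -0.49, 0.49 and 0.01 around the WT mean in replicates 1, 2 and 3. Between samples of the same number, the difference was negative in 3 of 3 pairs for each of the 6 members, from -2.87 for miR-93 in pair 1 to -1.13 for miR-106a in pair 3. This follows from all KO samples lying below all WT samples, which held for 59.9% of all tested assays, and is not particular to the family.

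**Figure D2:**
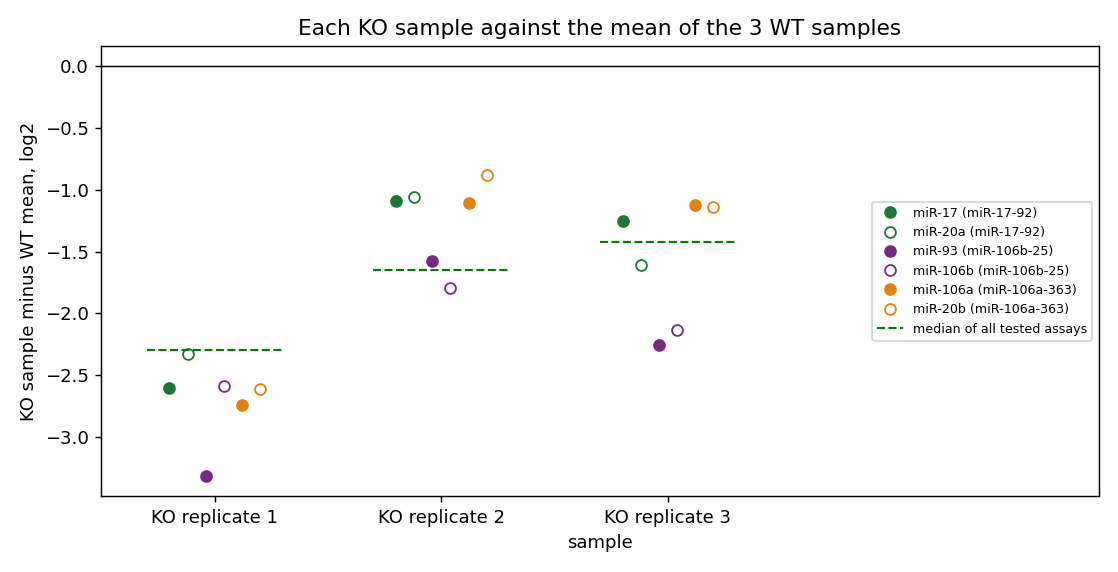
Difference between each KO sample (x axis) and the mean of the 3 WT samples, in log2 relative to the controls (y axis), for the 6 members (points, coloured by cluster); dashed lines are the medians of all tested assays. Each member lies lowest in KO replicate 1, where the members' median was -2.61, and miR-93 and miR-106b (purple) are the lowest points in replicates 2 and 3; with the mean of detected miRNAs as the reference the mean difference of the other 4 members is above 0.

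By cluster, the mean of the 2 members was -4.30, -3.04 and -3.55 in KO, against -1.58, -1.10 and -1.38 in WT, for miR-106b-25, a difference of -2.28 (4.84-fold lower in KO). For miR-17-92 it was -1.11, 0.28 and -0.08 in KO, against 0.92, 1.75 and 1.39 in WT, a difference of -1.66 (3.15-fold). For miR-106a-363 it was -2.63, -0.94 and -1.08 in KO, against -0.54, 0.61 and 0.08 in WT, a difference of -1.60 (3.03-fold). These cluster means are given as a description, relative to the controls; with the mean of detected miRNAs as the reference the differences of miR-17, miR-20a, miR-106a and miR-20b were 0.24, 0.22, 0.23 and 0.34, while those of miR-93 and miR-106b stayed negative at -0.50 and -0.28.

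Setting 1 member against another in the same sample removes the controls and the sample's common shift, since all 6 share a block. Of the 15 pairs of members, 4 had no overlap between KO and WT, beside 18.8% of the 9730 pairs that can be formed from the 140 block A assays measured in all 6 samples, in either direction. All 4 were miR-93 against a member of another cluster, so they share miR-93 and are not independent. miR-93 minus miR-20b was 0.00, 0.01 and -0.41 in KO, against 0.91, 0.64 and 0.56 in WT. This difference of -0.84 ± 0.18 (SE, n = 3 per group; 95% interval -1.33 to -0.35) means that miR-93 was 1.79-fold lower in KO relative to miR-20b, with an exact permutation p of 0.1, the smallest that 3 against 3 samples can give, and 0.375 adjusted over the 15 pairs. miR-93 minus miR-17 was -3.30 to -2.78 in KO, against -2.45 to -2.21 in WT, a difference of -0.73 (95% interval -1.21 to -0.26). Against miR-106a and miR-20a the differences of miR-93 were -0.73 and -0.72, with the same exact p of 0.1 and adjusted p of 0.375.

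miR-106b had the same sign of difference against those 4 members, -0.50 to -0.62, but its samples overlapped (exact permutation p = 0.2 to 0.3, adjusted p = 0.563). Taken by replicate number, the KO sample was below its WT sample in 3 of 3 pairs in each of these 4 comparisons, and in the 4 of miR-93 as well (exact sign-flip p = 0.25 each, the smallest that 3 pairs can give). How often other pairs of assays do so was not counted. The comparisons of miR-106b share that member, as those of miR-93 share theirs, so they are not independent. Within the Mcm7 cluster, miR-93 minus miR-106b differed by -0.21 between KO and WT (95% interval -1.32 to 0.90; exact permutation p = 0.6, adjusted p = 0.818), an interval that leaves room for a difference either way. Within miR-17-92, miR-20a minus miR-17 differed by -0.02 (95% interval -0.59 to 0.56). Within the X-linked cluster, miR-106a minus miR-20b differed by -0.11 (95% interval -0.36 to 0.14).

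**Figure D3:**
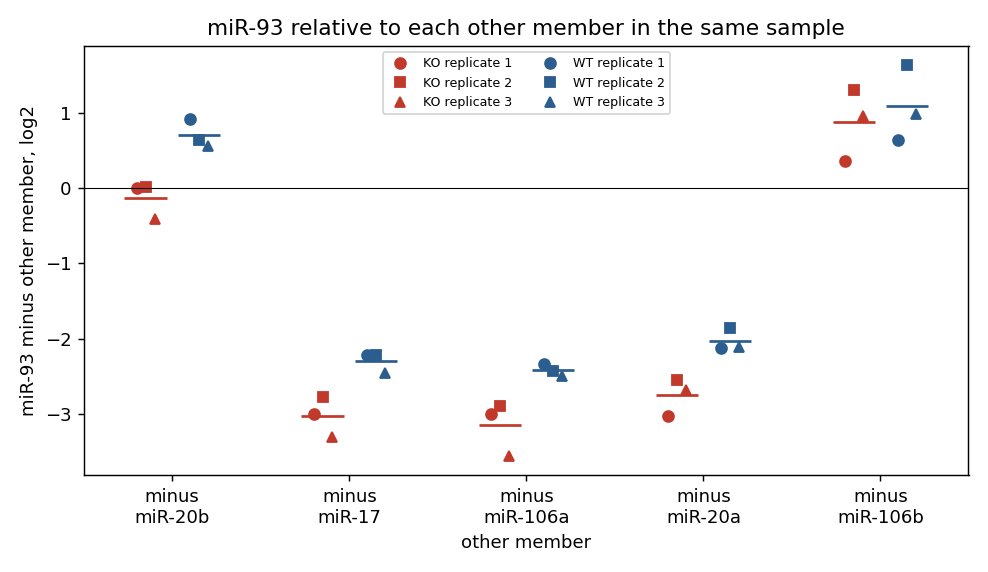
miR-93 minus each other member in the same sample (y axis, log2 units of Ct) for the 3 KO samples (red, left) and the 3 WT samples (blue, right), with the other member on the x axis and bars at the means. Against miR-20b, miR-17, miR-106a and miR-20a the KO samples lie below the WT samples, for example at -0.41 to 0.01 beside 0.56 to 0.91 for miR-20b, and against miR-106b they overlap; this comparison does not use a reference.

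miR-17 and miR-106a, which come from different chromosomes and differ at a single base, gave nearly the same Ct in each sample. miR-17 minus miR-106a was -0.01, 0.12 and 0.25 cycles in KO, against 0.13, 0.21 and 0.05 cycles in WT. Their KO minus WT differences lay 0.01 apart on the log2 scale (95% interval -0.25 to 0.24; exact permutation p = 0.9). Whether each of these 2 assays reads only its own miRNA was not tested. Of the other products of the X-linked cluster, those with a sequence of their own were scarcely detected: miR-18b was at Ct 40 in all 6 samples, miR-363 at 34.1 in WT replicate 2 and at 40 in the other 5 samples, and the passenger strand miR-20b* at 40 in all 6. miR-20b itself, with 2 bases different from miR-17, was measured at Ct 22.0 to 27.0 in KO and 20.6 to 23.2 in WT.

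The partners share the precursors of the members but have other seeds. They are printed with bases 2 to 8 in capitals to show that miR-18a differs from the family inside the seed, that miR-19a and miR-19b form 1 further seed group, and that miR-92a and miR-25 form another.
miR-18a: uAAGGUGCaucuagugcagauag
miR-19a: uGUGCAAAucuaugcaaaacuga
miR-19b: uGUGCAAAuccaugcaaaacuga
miR-92a: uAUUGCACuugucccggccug
miR-25: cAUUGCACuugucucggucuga
Of these 5 tested partners, 1 was lower in KO at an adjusted p under 0.05 (2 with the replicate block, 2 at an unadjusted p under 0.05) and 0 were higher. Over all 282 tested assays 105 were lower (37.2%), 118 with the replicate block (41.8%), and 150 were lower at an unadjusted p under 0.05. The partners' median difference was -1.24 relative to the controls, beside -1.66 for the members. miR-18a, whose seed differs from that of the family by 1 base, fell by 2.08 ± 0.53 log2 units, 4.24-fold lower in KO (SE; limma, adjusted p = 0.0321), and without KO replicate 2 or 3 or any WT replicate it did not pass (adjusted p = 0.0503 to 0.123).

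miR-25, cut from the same Mcm7 transcript as miR-93 and miR-106b, had Ct values of 28.5, 25.3 and 24.9 in KO, against 25.3, 24.3 and 23.2 in WT. Its difference of -1.40 ± 0.49 relative to the controls was smaller than those of both its neighbours and did not pass the test (limma, adjusted p = 0.0567; 0.0464 with the replicate block). miR-19a had a difference of -1.24 and an adjusted p of 0.166. For miR-19b the difference was -0.85, with an adjusted p of 0.183, and for miR-92a it was -1.03, with an adjusted p of 0.194. The mature miR-19b and miR-92a are encoded both on chromosome 14 and on the X chromosome, so their assays cannot be assigned to 1 cluster. With the mean of detected miRNAs as the reference miR-25, miR-19a, miR-19b and miR-92a were at 0.48, 0.65, 1.04 and 0.86, and miR-18a at -0.20.

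**Figure D4:**
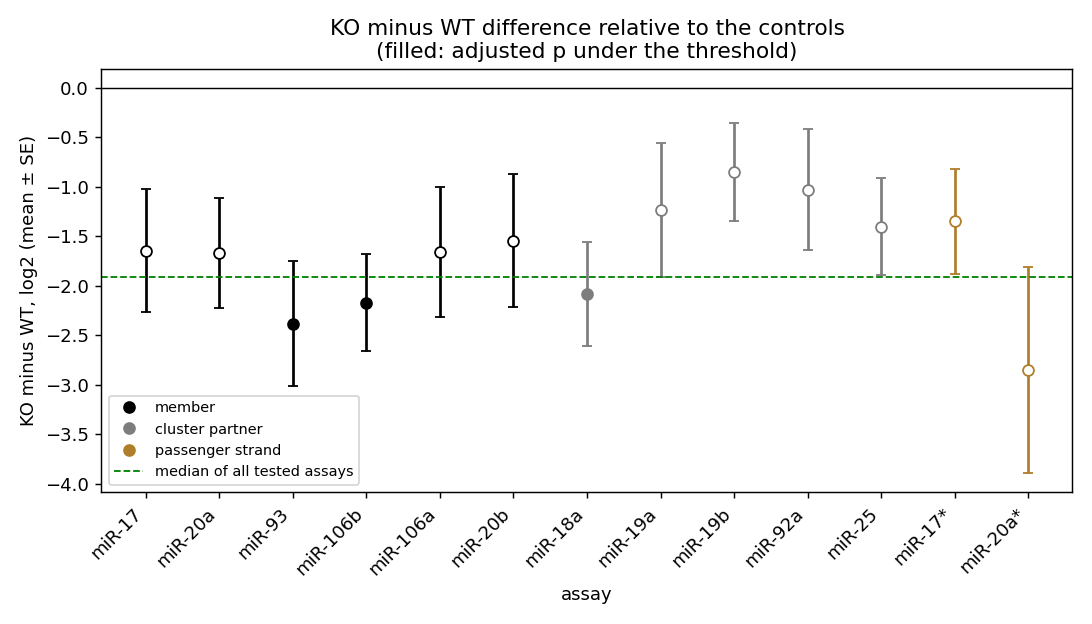
KO minus WT difference in log2 relative to the controls (y axis, mean with SE from limma) for the 6 members (black), 5 cluster partners (grey) and 2 passenger strands (brown) on the x axis; filled points passed an adjusted p of 0.05 and the dashed line is the median of all tested assays, -1.91. miR-93, miR-106b and miR-18a are the filled points. With the mean of detected miRNAs as the reference, these keep a negative difference and the other members and partners shown do not. The passenger strands stay negative too, but they lie in block B, where this reference moved the values less. It took miR-17 of block A from -1.65 to 0.24, and miR-17* of block B from -1.35 to -0.70. With this reference the signs of passenger strands and members are therefore not comparable.

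Passenger strands, the strands released from the same duplexes that are mostly discarded, were assayed for 3 of the 6 hairpins, in block B: miR-17*, miR-20a* and miR-20b*. miR-17* had Ct values of 31.0, 26.9 and 27.6 in KO, against 28.2, 25.9 and 26.0 in WT, a difference of -1.35 ± 0.53 relative to the controls of block B (limma, adjusted p = 0.0764). miR-20a* did not amplify in KO replicate 1 and was at 28.98 and 28.1 in KO replicates 2 and 3, against 28.8, 27.0 and 26.5 in WT. It entered the test through its WT samples, and the size of its difference was set by the Ct given to the well without amplification. It was -2.85 with a ceiling of 35 (limma, adjusted p = 0.0623), -1.85 with a ceiling of 32 (adjusted p = 0.0236) and -4.52 with a ceiling of 40 (adjusted p = 0.175). Without KO replicate 1, the sample with that well, it was -1.66 (adjusted p = 0.0422), and it was -3.67 without KO replicate 3 (adjusted p = 0.0375). At a ceiling of 35, 0 of the 2 tested passenger strands passed by limma and 2 were lower at an unadjusted p under 0.05, beside 150 of the 282 assays. miR-17* passed when the floor was set after scaling (adjusted p = 0.039).

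Of the stem cell families miR-290 and miR-302, 9 mature sequences that were looked up carry the hexamer AAGUGC of the family's seed near their 5′ end. This list may not hold every member of these families, and 7 of the 9 had assays. Of these, 6 were at or above Ct 35 in all 6 samples and 0 were below it in all 6. miR-294 was at Ct 34.1 and 31.0 in KO replicates 1 and 2 and not amplified in KO replicate 3, against 32.7, 31.9 and 31.4 in WT.

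Assays outside the family with the most similar course over the 6 samples were ranked by the root mean square distance between profiles, each centred on its own mean, from the mean profile of the members. The closest were let-7f (0.16 log2 units), miR-320 (0.21), miR-674 (0.22), miR-29c (0.24) and miR-322 (0.26), beside 0.13 to 0.36 for the members themselves and a median of 0.88 over the 282 tested assays. Their own KO minus WT differences relative to the controls were -1.99, -1.67, -1.85, -1.71 and -1.91. All profiles share the same 6 samples and the controls of block A, so the likeness includes what these samples have in common. Each member is also part of the mean profile it is compared with, which lowers the members' own distances.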

How the data were processed

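Total RNA was isolated with mirVana, converted to cDNA with a TaqMan kit and preamplified, per the labels' protocols. Instrument, Ct software and the authors' normalization are not given in the sources used here. Deposited were 3 tables by the authors, one of Ct scores (608 rows), one of relative quantities as a ratio to WT, and one of KO over WT fold ratios. From their values, the members' deposited ratios equal 2 to the power of minus Ct, scaled to U6, snoRNA135 and snoRNA202 of the block and to the WT geometric mean.

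All tests used the Ct table. Ct values were limited to 35, and the mean Ct of the 5 controls of the block was subtracted. The comparison of KO with WT used lmFit and eBayes of limma 3.58.1 (R 4.3.3, two-sided) over the 282 assays below 35 in all samples of at least 1 group, with Benjamini-Hochberg adjustment over all of them and a threshold of 0.05. The procedure was tested on simulated data. Pairs of members were compared by exact permutation, with intervals at 95% from the pooled variance. Tables and figures were made with Python 3.11.15, numpy 2.4.6, pandas 2.3.3 and matplotlib 3.10.9. The number of samples limits the precision. The labels call the samples biological replicates, from 3 mice per group.

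After subtracting group means, KO and WT samples of like replicate number correlated over assays at 0.23, 0.28 and 0.27, and those of unlike number at -0.28 to 0.01. Subtracting group means makes correlations of unlike number negative on average when those of like number are positive, so the values cannot establish a pairing. No label names a shared batch. The numbers were used as pairs only for the replicate block and the comparisons by replicate number. The main comparison had no replicate block.

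The members and lists were chosen with earlier results of these data known. Named were the 6 members, their cluster partners and passenger strands, assays with the same seed, the controls, the marker miRNAs and the 5 assays closest in profile. The miR-290 and miR-302 families were added after the data were seen. Besides the myeloid, liver and stromal markers and miR-1, the lymphocyte miR-150 was below the ceiling in all 6 samples. Fewer samples were below it for miR-126-3p (endothelial) and miR-9 (neural) with 5, miR-451 (erythroid) with 3, miR-133a (muscle) with 2 and miR-124 (neural) with 1.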

Additional observations from a re-analysis of the deposited data

How the results depend on the processing

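All 6 members had a negative difference under every setting run except with the mean of detected miRNAs as the reference, where miR-93 and miR-106b alone did; with that reference the members' median was 0.23, and miR-17, miR-20a, miR-106a, miR-20b, miR-19a, miR-19b, miR-92a and miR-25 turned to 0.24, 0.22, 0.23, 0.34, 0.65, 1.04, 0.86 and 0.48. That reference takes out a common shift by construction. With it, or with no reference, 0 members, 0 partners and 2 assays in all passed as lower (limma; 0 members and 0 partners at an unadjusted p under 0.05), and with no filter on undetected assays 0, 0 and 2 (2 members and 1 partner unadjusted), where 596 assays were tested. The share of all assays at an unadjusted p was not counted under these settings. There were 5 lower members with assays required in all 6 samples, 4 with a variance trend and 6 with the replicate block, where 56.7%, 41.1% and 41.8% of all tested assays were lower. Lower partners numbered 2 under each of these 3. Under a ceiling of 32 and with the floor set after scaling there were 3 lower members and 2 lower partners, beside 47.6% and 40.1% of assays. With U6 alone, or with U6, snoRNA135 and snoRNA202, there were 3 lower members and 1 lower partner, beside 41.5% and 39.7%. Leaving out 1 sample gave 0 to 2 lower members, 0 to 1 lower partners and 2 to 112 lower assays, with a members' median of -1.95 to -1.25. The difference between miR-93 and miR-20b was -0.91 to -0.70 without 1 sample; the ceilings and the replicate block (exact sign-flip p = 0.25) cannot move it, since all its Ct values lie below them and pairing keeps the group means. The causes of changed calls were not tested. Of 233 values of single assays under other settings, 181 kept direction and side of the threshold, 22 lost and 22 gained the call, and 8 turned round.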
